A study of Homo sapiens with 9 samples.

Results

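The genes described are those that encode the proteins of the mitochondrial ribosome, taken as every row of the count table whose symbol is MRPL or MRPS followed by a number and at most 1 further letter. Of 34934 rows, 77 met this rule, 48 named for the large subunit (MRPL) and 29 for the small subunit (MRPS), and all 77 passed the filter on low counts. RNA was measured in TC71 cells, a human Ewing sarcoma line, sorted from NSG mice, which lack T, B and natural killer cells but still have myeloid cells. In every group, 100 cells in Matrigel had been placed in the flank and the tumours had reached 1.5 cm, and no further treatment is given in the labels. The groups are tumour cells from bone marrow (4 libraries), from lung (4 libraries) and from the primary tumour (1 library). All come from the same cell line. The labels do not say which mouse each library came from, so p-values measure only the spread between these libraries. The primary tumour has a single library, so its comparisons place that library against the spread of the metastases and have no replicate check.

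The mitochondrial ribosome sits in the matrix, at the inner membrane, and translates the few messenger RNAs encoded by mitochondrial DNA, all for core subunits of the respiratory chain and ATP synthase. Its RNAs are transcribed from mitochondrial DNA, whereas all of its proteins are made in the cytosol from nuclear genes and imported. Some of these proteins have counterparts in the bacterial ribosome and others are found only in mitochondria. The symbols do not always follow the place of the protein: MRPS30 and MRPS18A encode proteins that lie in the large subunit, and MRPS36 encodes a component of the 2-oxoglutarate dehydrogenase complex, although all 3 are counted here with the small subunit by name.

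Library totals lay between 14158315 and 17910782 estimated counts in bone marrow and between 11549807 and 13218789 in lung, and the primary library held 12352474. Human reads made up 77.59 to 79.1% of reads in bone marrow, 72.67 to 77.34% in lung and 78.09% in the primary library. The biological coefficient of variation over all genes was 0.925. All 12 markers of Ewing sarcoma cells passed the filter, with summed levels of 1916 to 2386 CPM (counts scaled to library size) in bone marrow, 2460 to 2867 in lung and 2603 in the primary library. Human red cell markers summed to 17.2 to 111 CPM, 3.64 to 172 CPM and 8.68 CPM in the same order. Human leukocyte markers summed to 3.71 to 14.7 CPM, 2.77 to 44.5 CPM and 6.93 CPM, with CSF1R at 0 in all 9 libraries. Of 6 leukocyte markers tested in bone marrow against lung, 2 were higher and 4 lower. CD68, at most 0.448 CPM in any bone marrow library, had 20.9, 7.78, 0.956 and 2.25 CPM in lung libraries. Its adjusted p was 0.381 in edgeR and 0.00346 in DESeq2. PTPRC reached 14.4 CPM in lung library 1. Human lung epithelium and endothelium markers summed to 36.1 to 103 CPM in bone marrow, 31.0 to 145 CPM in lung and, in the primary library, 53.6 CPM. SCGB1A1 was at 0 in all 9, but CDH5 lay between 22.1 and 29.4 CPM in all 9. EPCAM spanned 11.0 to 77.7 CPM over bone marrow libraries and 0 to 115 CPM over lung libraries, with 27.8 CPM in the primary library. The other markers of this list reached at most 9.99 CPM, for CLDN5 in bone marrow library 1. All CPM values are scaled by edgeR's TMM factors.

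The mitochondrial ribosomal protein genes together took 1.875 ± 0.125% of a library's counts in bone marrow, 2.018 ± 0.166% in lung (SD, n = 4 each) and 1.611% in the primary library. Bone marrow libraries spanned 1.748 to 1.992% and lung libraries 1.854 to 2.168%, so the sites overlapped, and the primary library lay below all 8 metastasis libraries. The large subunit genes summed to 14020 ± 1660 CPM in bone marrow, 14310 ± 1790 CPM in lung and, in the primary library, 11133 CPM. The small subunit genes summed to 5482 ± 406, 5469 ± 428 and 4134 CPM in the same order. The large-to-small ratio of summed CPM was 2.551 ± 0.115 in bone marrow, 2.613 ± 0.179 in lung and 2.693 in the primary library, so the sites differed by less than the spread between libraries and the primary library lay within the lung range of 2.375 to 2.804. In bulk RNA of this kind, fewer cells of a type and less RNA per cell cannot be told apart.

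**Figure D1:**
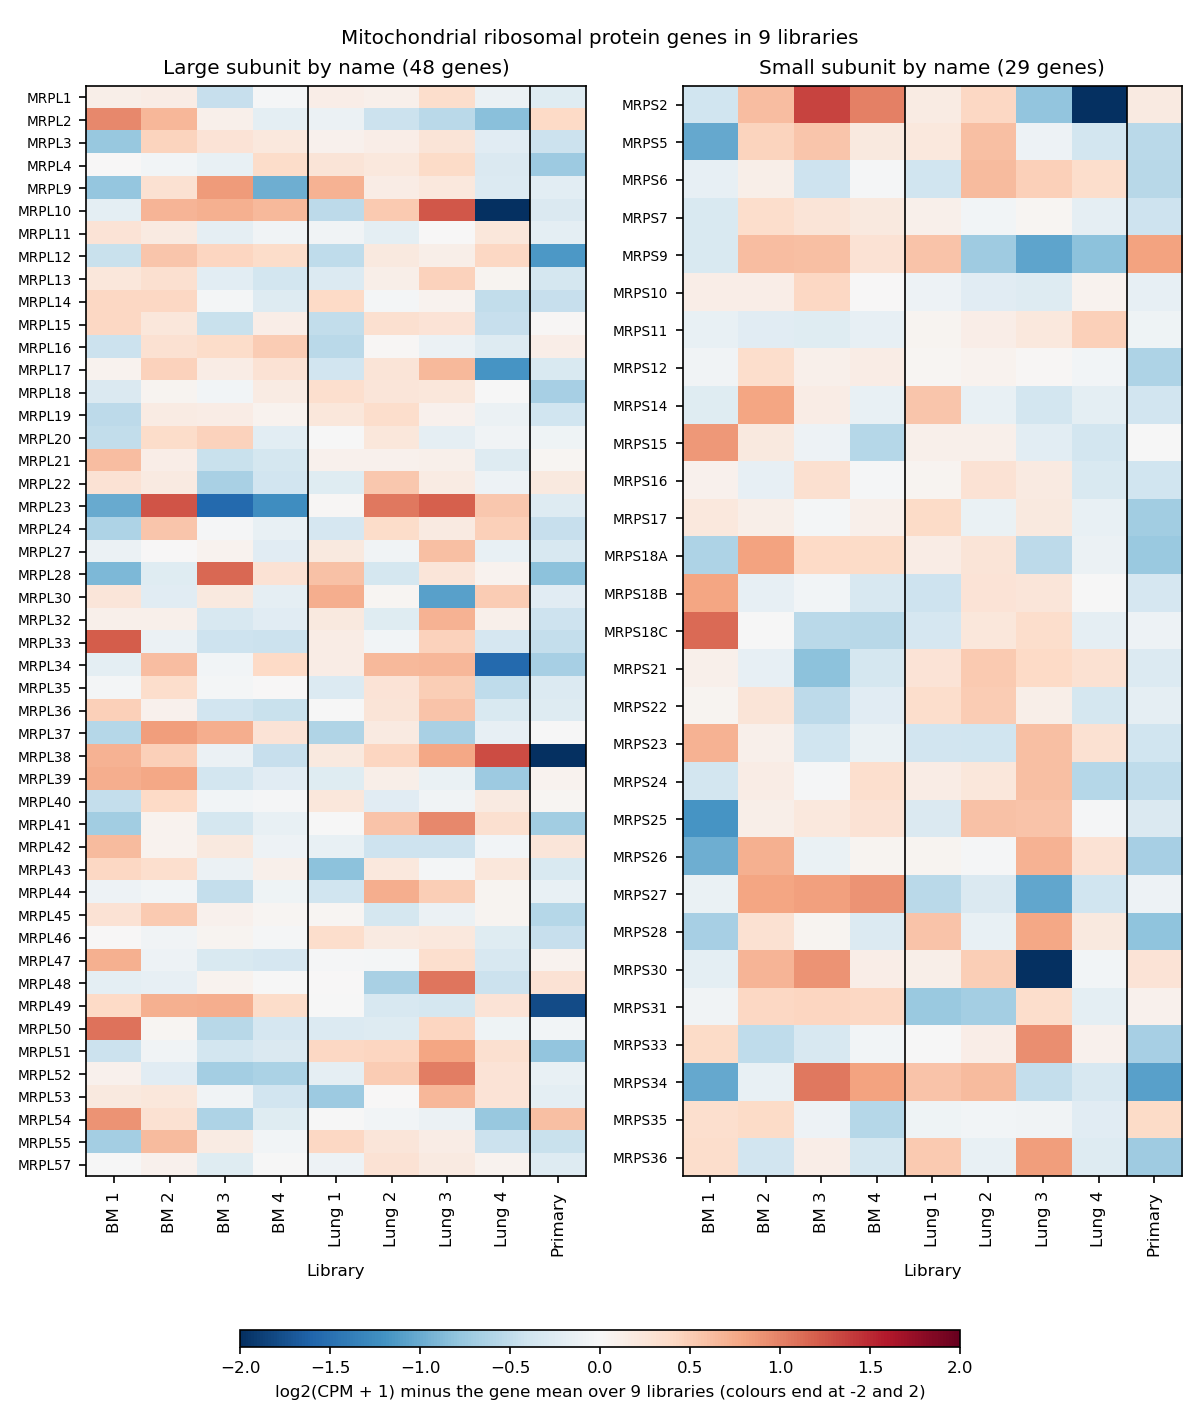
Level of each of the 77 genes in each of the 9 libraries, as log2(CPM + 1) minus the mean of that gene over the 9 libraries, with large subunit genes on the left and small subunit genes on the right, and bone marrow (BM), lung and primary columns in order. Most rows are pale in the bone marrow and lung columns alike, the primary column is mostly blue, and MRPL38 and MRPL49 are darkest there.

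Individual levels differed far more between genes than between sites. Per kilobase of transcript and averaged over the 9 libraries, levels ran from 7.08 to 2487 CPM per kilobase, a 352-fold range, with a median of 204 for the large subunit genes and 93.7 for the small subunit genes. MRPL13, the counterpart of a bacterial protein, was the highest, at 2477 ± 563 CPM per kilobase in bone marrow, 2640 ± 557 in lung (SD, n = 4 each) and 1915 in the primary library. MRPL51 was next in the average over the 9 libraries, at 1134 ± 125, 1948 ± 290 and 794 CPM per kilobase. In bone marrow the lowest MRPL13 value, 1896, lay above the highest MRPL51 value, 1311. In lung the lowest MRPL13 value, 2021, lay below the highest MRPL51 value, 2373, but these 2 values came from different libraries. Within each of the 9 libraries MRPL13 was above MRPL51. MRPL27, whose bacterial counterpart reaches into the peptidyl transferase centre, followed in that average, at 910.5 ± 83.3, 1076 ± 264 and 763 CPM per kilobase. MRPL42 came just after it, at 1088 ± 252, 785.9 ± 102 and 1099 CPM per kilobase, and so stood above MRPL27 in bone marrow and above both MRPL27 and MRPL51 in the primary library. The ranges of MRPL27 and MRPL42 overlapped in bone marrow and in lung. Within every bone marrow library, however, MRPL42 was above MRPL27. In lung MRPL27 was the higher in all libraries but library 4. These orders between genes rest on the median coding transcript length. With the longest annotated transcript, the averages over the 9 libraries were 1968 CPM per kilobase for MRPL13, 592 for MRPL51, 292 for MRPL27 and 56.4 for MRPL42. The CPM values of MRPL27 were 647, 706, 734 and 597 in bone marrow libraries, 805, 669, 1064 and 635 in lung libraries and 562 in the primary library, the lowest of the 9.

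MRPL38, MRPL30 and MRPL40 had the lowest levels of the large subunit, at 7.08, 18 and 41.5 CPM per kilobase over the 9 libraries. MRPL30, the counterpart of a bacterial protein, had 32.2, 23.0, 31.2 and 23.8 CPM in bone marrow libraries, 45.1, 27.6, 12.2 and 38.8 CPM in lung libraries and 23.0 CPM in the primary library. MRPL40, found only in mitochondria, had 40.4, 74.8, 54.8 and 55.9 CPM in bone marrow libraries, 66.9, 48.5, 54.3 and 64.7 CPM in lung libraries and 58.2 CPM in the primary library. For both genes the sites overlapped and the primary library lay within the lung range. MRPL13 had 2448, 2628, 1809 and 1629.6 CPM in bone marrow libraries, 1737, 2263, 2898 and 2178 CPM in lung libraries and 1646 CPM in the primary library, within the range of the bone marrow libraries and below the lung ones.

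Among small subunit genes MRPS28, MRPS23 and MRPS18C were highest, at 739, 717 and 555 CPM per kilobase over the 9 libraries. MRPS23, found only in mitochondria, had 645, 425, 302 and 362 CPM in bone marrow libraries, 306, 302, 606 and 493 CPM in lung libraries and 301 CPM in the primary library. MRPS18C, 1 of 3 genes for forms of the same bacterial protein, had 759, 345, 237 and 234 CPM in bone marrow libraries, 274, 405, 443 and 306 CPM in lung libraries and 322 CPM in the primary library. The sites overlapped for both, and bone marrow library 1 stood highest for both. MRPS2, MRPS11 and MRPS36 were lowest, at 18.5, 31.8 and 35.0 CPM per kilobase. MRPS36 had 51.0, 30.3, 43.5 and 30.9 CPM in bone marrow libraries, 57.5, 35.6, 71.8 and 33.2 CPM in lung libraries and 23.9 CPM in the primary library, below all 8 metastases. With the longest annotated transcript in place of the median one, 7 of these 12 genes stayed among the 3 highest or 3 lowest of their subunit.

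**Figure D2:**
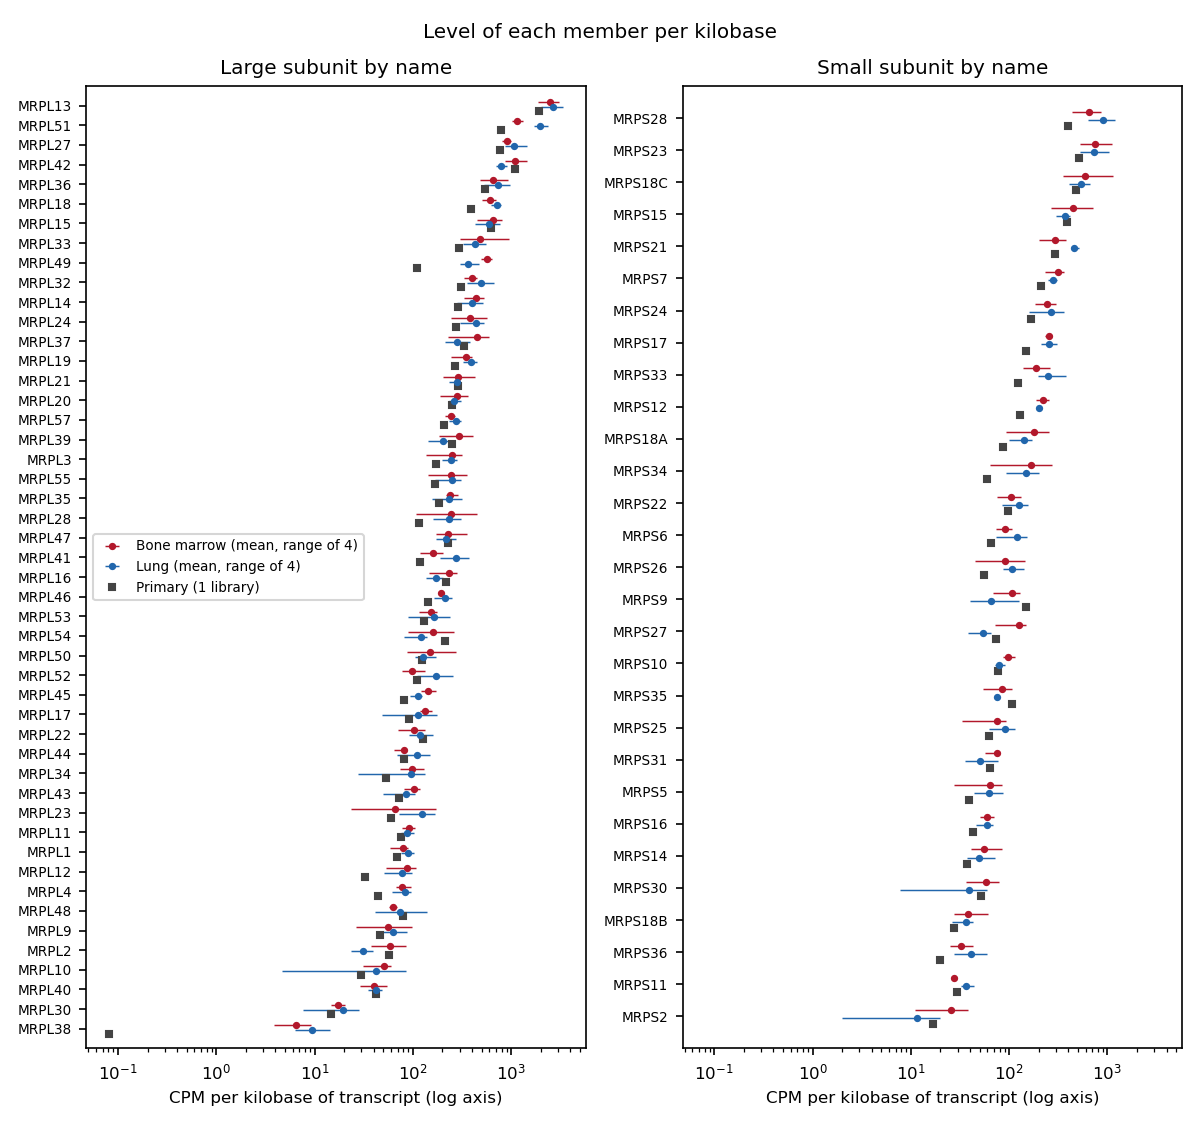
Level of each gene in CPM per kilobase of transcript on a log axis, sorted within subunit, with the mean (circle) and range (line) of 4 bone marrow and 4 lung libraries and the single primary library (square). Levels run from 7.08 for MRPL38 to 2487 for MRPL13 over the 9 libraries, the bone marrow and lung ranges of most genes overlap, and the MRPL38 square lies far to the left.

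How the metastatic cells differ between sites was asked by setting bone marrow against lung. No mitochondrial ribosomal protein gene passed an adjusted p of 0.05 in the edgeR quasi-likelihood test, in which 1 of 17073 genes (0.00586%) did. At an unadjusted p below 0.05, 4 of the 77 were higher in bone marrow (6.33% of all genes) and 4 were lower (3.88% of all genes), so these counts are close to the background. The fitted log2 fold change was above 0 for 42 of 77 genes, against 49.9% of all genes, with a median of 0.03 for the 77 and 0.00 for all genes. Of the 77, 66 lay within 1.5-fold, and the median standard error was 0.29 on the log2 scale, against 0.80 for all genes. The large subunit split 24 to 24, with a median log2 fold change of -0.01, and the small subunit had 18 of 29 above 0, with a median of 0.08. The sign of the median over the 77 turned with the scaling and with the libraries kept: it was -0.05 with library size alone, where the median of all genes was -0.09, and between -0.07 and 0.08 with each library left out. Without lung library 3, the 4 lower genes became 2, and without lung library 1 they became 6.

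DESeq2 on the same genes called MRPL51 and MRPS27, and limma voom called 0 of the 77 (0.0293% of all genes higher and 0.00586% lower). MRPL51, a large subunit protein found only in mitochondria, had 515, 657, 536 and 565 CPM in bone marrow libraries, 919.9, 932, 1189 and 863 CPM in lung libraries and 398 CPM in the primary library. Every bone marrow library lay below every lung library, and the primary library lay below them all. Its log2 fold change in bone marrow against lung was -0.78 ± 0.17 (SE), at an edgeR adjusted p of 0.303 and a DESeq2 adjusted p of 0.00722. DESeq2 called 1.21% of its 13868 genes lower in bone marrow. MRPL51 lies at chr12:6491886-6493841 on the minus strand (hg38, GENCODE release 29), and its exons overlap those of NCAPD2, a condensin subunit gene on the other strand, which averaged 29.3 ± 7.82 CPM in bone marrow, against 29.1 ± 9.17 CPM in lung.

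MRPS27 encodes a pentatricopeptide-repeat protein of the small subunit found only in mitochondria. It had 92.3, 176, 181 and 191 CPM in bone marrow libraries, 69.7, 82.9, 48.7 and 76.4 CPM in lung libraries and 94.5 CPM in the primary library. Bone marrow libraries 2 to 4 stood apart at the top, and bone marrow library 1 lay just above the highest lung library and just below the primary one, so the sites did not overlap. Its log2 fold change was 1.20 ± 0.30 (SE), at an edgeR adjusted p of 0.342 and a DESeq2 adjusted p of 0.0157, where 2.16% of genes were called higher by DESeq2. The gene lies at chr5:72219409-72320646 on the minus strand, and its exons overlap those of PTCD2 on the other strand, which averaged 52.1 ± 26.1 CPM in bone marrow, against 18.8 ± 9.95 CPM in lung (log2 fold change 1.47, unadjusted p = 0.0247 in edgeR, a value from the fit over all genes). No source used here says whether the counting used strand, so reads from the exon stretches that such pairs share cannot be told apart. The length of those stretches is not reported here, and the part of PTCD2 in the MRPS27 difference was not tested.

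The other genes with an unadjusted edgeR p below 0.05 and higher levels in bone marrow were MRPL49, MRPL2 and MRPL42. MRPL49, another large subunit protein found only in mitochondria (chr11:65122183-65127371, plus strand), had 263, 329, 332 and 258 CPM in bone marrow libraries, 198, 159.6, 157 and 242 CPM in lung libraries and 57.5 CPM in the primary library. The sites did not overlap, and the primary library was far below both. The log2 fold change of MRPL49 was 0.64 ± 0.22 (SE), at an edgeR adjusted p of 0.436. Its exons overlap those of FAU on the other strand, a gene of the cytosolic ribosome, which averaged 990 ± 195 CPM in bone marrow, 1320 ± 192 CPM in lung and, in the primary library, 935 CPM. MRPL2, the counterpart of a bacterial protein next to the peptidyl transferase centre, had 75.9, 61.8, 41.3 and 33.6 CPM in bone marrow libraries, 35.4, 28.2, 26.1 and 21.1 CPM in lung libraries and 51.1 CPM in the primary library. MRPL42, found only in mitochondria, had 1330.4, 901, 977 and 795 CPM in bone marrow libraries, 778, 645, 641 and 828 CPM in lung libraries and 1011 CPM in the primary library. For both, 1 bone marrow library fell within the lung range, and their log2 fold changes were 0.94 ± 0.36 and 0.47 ± 0.20 (SE), with edgeR adjusted p of 0.475 and 0.486.

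The other genes with an unadjusted edgeR p below 0.05 and lower levels in bone marrow were MRPS21, MRPL41 and MRPL52. MRPS21, the counterpart of a bacterial small subunit protein (chr1:150293720-150308979, plus strand), had 515, 428, 271 and 375 CPM in bone marrow libraries, 576, 687, 628 and 589.5 CPM in lung libraries and 396 CPM in the primary library. All 4 bone marrow libraries lay below all 4 lung libraries, and the log2 fold change was -0.64 ± 0.21 (SE), at an edgeR adjusted p of 0.436. MRPS21 has 8 annotated pseudogenes, so its counts are uncertain where reads of a copy were assigned to it. MRPL41, a large subunit protein found only in mitochondria, had 148, 253, 189 and 217 CPM in bone marrow libraries, 241, 358, 469.8 and 304 CPM in lung libraries and 149.7 CPM in the primary library. MRPL52, likewise found only in mitochondria, had 77.0, 62.1, 45.0 and 46.7 CPM in bone marrow libraries, 64, 103, 149 and 88.5 CPM in lung libraries and 65.3 CPM in the primary library. The sites overlapped for both through 1 library of each site, with log2 fold changes of -0.77 ± 0.26 and -0.81 ± 0.33 (SE) and edgeR adjusted p of 0.441 and 0.485.

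Over the 77 genes, 2 had all 4 bone marrow libraries above all 4 lung libraries (MRPL49 and MRPS27, against 2.81% of all genes) and 3 had them below (MRPL51, MRPS21 and MRPS11, against 3.06% of all genes). MRPS11 had 62.5, 58.8, 58.7 and 61.6 CPM in bone marrow libraries, 71.9, 76.0, 80.5 and 96.3 CPM in lung libraries and 65.4 CPM in the primary library. Its log2 fold change was -0.43 ± 0.23 (SE), and the coefficient of variation among its bone marrow libraries, 3.26%, was the lowest of the 77 genes there. Next in order of p were MRPL37 and MRPS31, higher in bone marrow, and MRPS28, lower. MRPL37, found only in mitochondria, had 302, 799, 744 and 539 CPM in bone marrow libraries, 293, 508, 285 and 398 CPM in lung libraries and 444 CPM in the primary library. MRPS31, likewise found only in mitochondria, had 83.6, 117, 119 and 117 CPM in bone marrow libraries, 52.5, 54.9, 113 and 77.2 CPM in lung libraries and 93.4 CPM in the primary library. The sites overlapped for both, through bone marrow library 1 in each case.

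**Figure D3:**
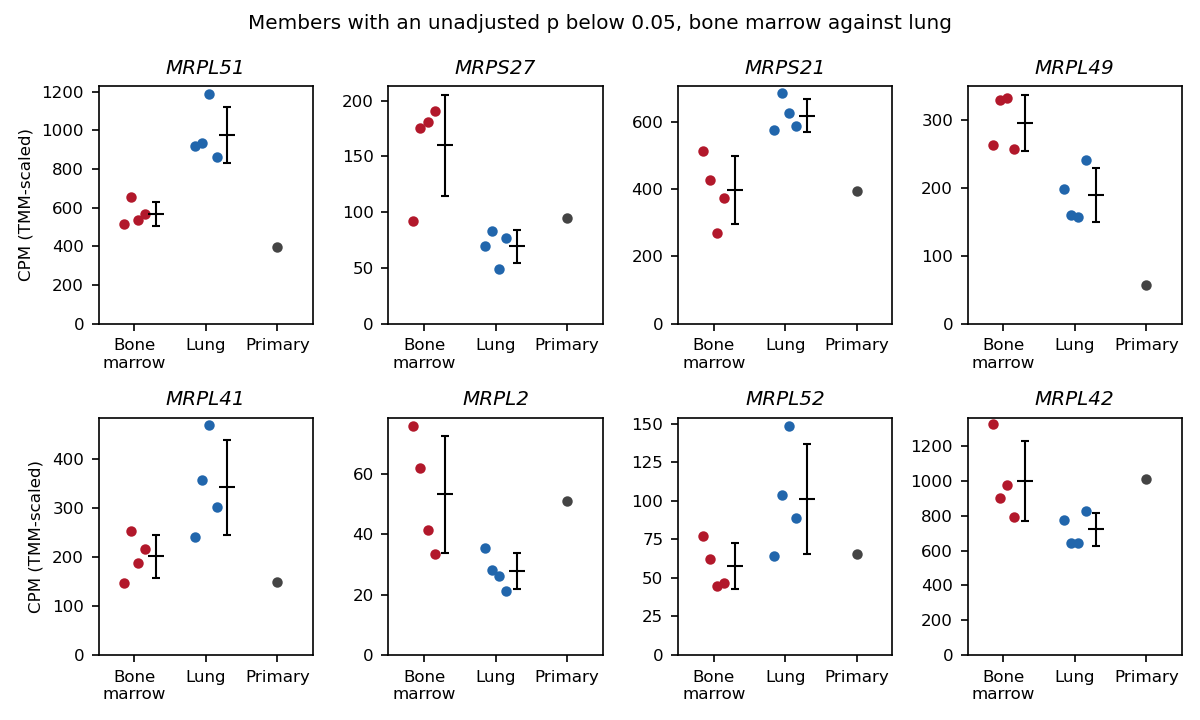
TMM-scaled CPM of the 8 genes with an unadjusted edgeR p below 0.05 in bone marrow against lung, with 1 point per library, the mean and SD of 4 libraries beside the bone marrow and lung points, and the primary library on the right. The bone marrow points lie wholly below the lung points for MRPL51 and MRPS21 and wholly above them for MRPS27 and MRPL49, and the sites overlap for MRPL41, MRPL2, MRPL52 and MRPL42.

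**Figure D4:**
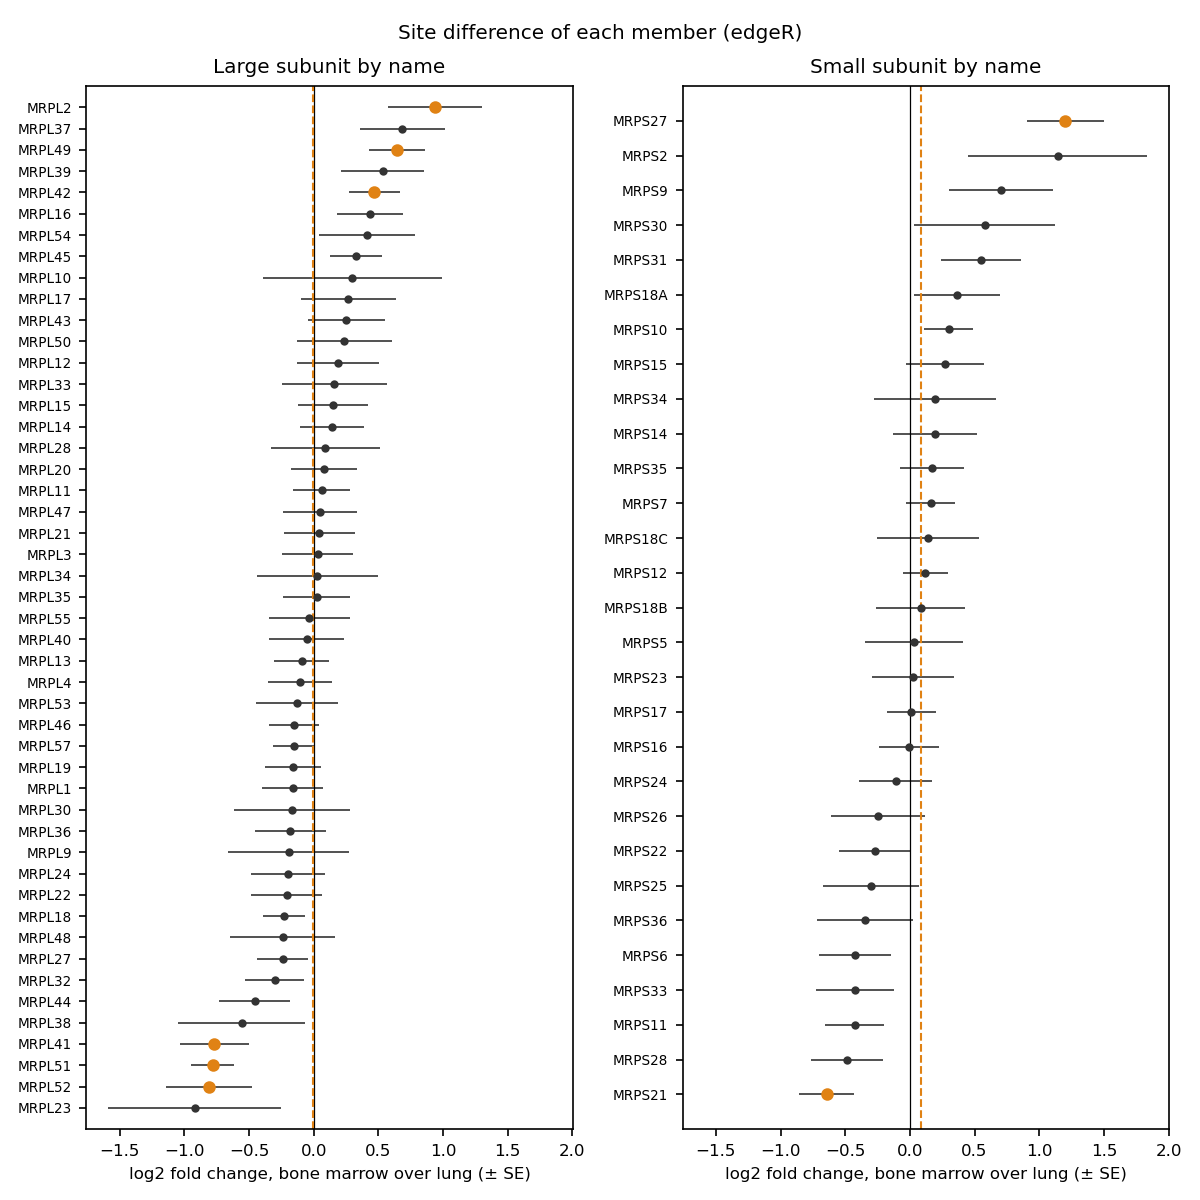
Log2 fold change in bone marrow against lung of each of the 77 genes with its standard error, by subunit and sorted, with the median of the subunit as a dashed line and genes with an unadjusted p below 0.05 in orange. Most genes lie within 1.5-fold on either side of 0, and the subunit medians are -0.01 and 0.08.

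Genes whose number is shared with a bacterial ribosomal protein (numbers up to 36 in the large subunit and up to 21 in the small subunit) had a median log2 fold change of 0.04 in bone marrow against lung, with 27 of 44 above 0. Genes with higher numbers, given to proteins first known from mitochondria, had a median of -0.05, with 15 of 33 above 0.

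Set against the primary tumour, the genes had mostly higher levels in metastases. In bone marrow 66 of 77 had a fitted log2 fold change above 0, against 58% of all genes, with a median of 0.39, against 0.17 over all genes. In lung 59 of 77 did, against 56.2% of all genes, with a median of 0.46, against 0.16 over all genes. Relative to the median of all genes the 77 were thus higher by 0.22 in bone marrow and 0.30 in lung. With library size alone the median of all genes in bone marrow was 0.04 and that of the 77 was 0.26, a difference of 0.22. With limma voom the differences were 0.39 in bone marrow and 0.48 in lung, and the median of all genes turned negative, at -0.06 and -0.10. Both subunits had positive medians, 0.31 for large and 0.53 for small in bone marrow, and 0.45 for large and 0.47 for small in lung. Neither comparison called any gene with edgeR (0% of all genes), and both use the same primary library, so they are not separate evidence. At an unadjusted p below 0.05, 7 of the 77 were higher in bone marrow than in the primary library (1.55% of all genes) and 0 lower (2.26%), and 8 were higher in lung than in the primary library (2.33%) and 0 lower (4.12%). Leaving out bone marrow library 2 made the 7 into 2, and leaving out bone marrow library 1 made it 11. In lung, the count fell without lung library 3 and rose without lung library 4.

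The primary library was the lowest of the 9 for 24 of the 77 genes, against 7.57% of all genes, and the highest for 2, MRPS9 and MRPS35, against 10.1% of all genes. All 4 bone marrow libraries lay above it for 34 genes (15.5% of all genes) and below it for 4 (19.1%), and all 4 lung libraries lay above it for 38 genes (17.9%) and below it for 7 (21.7%). The 24 genes came from both subunits, 12 of the 48 large and 12 of the 29 small subunit genes by name. Over all tested genes, the median log2(CPM + 1) was 2.495 to 2.68 in bone marrow, 2.16 to 2.62 in lung and 2.69 in the primary library, and 6.95 to 11.6%, 10.4 to 14.9% and 7.88% of genes had no counts in the same order. The part of these measures in the lower primary levels of the ribosomal protein genes was not tested.

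MRPL49 and MRPL38 differed most from the primary library. MRPL49 was at 57.5 CPM there, below all 8 metastases as given above, with log2 fold changes of 2.36 ± 0.41 in bone marrow and 1.72 ± 0.39 in lung (SE). The adjusted p of MRPL49 in edgeR was 1 and 0.508, and that in DESeq2 was 1.32e-05 and 0.00389, for bone marrow and lung in that order. MRPL38, a large subunit protein found only in mitochondria (chr17:75898643-75905413, minus strand), had 17.2, 14.6, 9.45 and 7.24 CPM in bone marrow libraries, 11.9, 14.2, 18.4 and 27.0 CPM in lung libraries and 0.153 CPM in the primary library, a value that rests on 2 estimated counts. The sites overlapped, and the primary library lay below every other. From those 2 counts, MRPL38 was 79.2-fold higher in bone marrow (95% Poisson interval of the primary count alone 21.9 to 654) and 116-fold higher in lung (32.2 to 962), intervals that cover counting error only. Its edgeR adjusted p was 1 in bone marrow and 0.448 in lung, and its DESeq2 adjusted p was 0.000438 and 3.68e-05. DESeq2 called 0.446% of genes higher in bone marrow, 2 of them among the 77 (MRPL49 and MRPL38), and 0.889% higher in lung, 3 of them among the 77 (MRPL38, MRPL49 and MRPL51). Of the 77, 0 were called lower by DESeq2 in bone marrow (0.0846% of genes) or in lung (0.445%). By limma voom 0 were called in either, where 0% of all genes were called in bone marrow and 0.0234% were called lower in lung.

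The other 5 of the 7 genes higher in bone marrow than in the primary library at an unadjusted edgeR p below 0.05 were MRPS12, MRPL12, MRPL45, MRPS17 and MRPL18, each with an adjusted p of 1. MRPS12, at the decoding centre, had 228, 306, 259 and 268 CPM in bone marrow libraries, 247, 253, 245 and 232 CPM in lung libraries and 157 CPM in the primary library. MRPL12, of the stalk that recruits translation factors, had 54.5, 109.9, 101 and 96.9 CPM in bone marrow libraries, 52.0, 85.8, 80.9 and 99.7 CPM in lung libraries and 33.1 CPM in the primary library. MRPL45, beside the exit tunnel, where it ties the ribosome to the inner membrane, had 238, 279, 207 and 199 CPM in bone marrow libraries, 201, 152, 179 and 202 CPM in lung libraries and 131 CPM in the primary library. For all 3 the sites overlapped and the primary library was lowest, with log2 fold changes in bone marrow of 0.76 ± 0.29, 1.45 ± 0.55 and 0.81 ± 0.34 (SE). MRPS17, the counterpart of a bacterial small subunit protein, had 353, 331, 295 and 326 CPM in bone marrow libraries, 396, 276, 349 and 274 CPM in lung libraries and 188 CPM in the primary library. MRPL18, the counterpart of a bacterial large subunit protein, had 496, 632, 584 and 685 CPM in bone marrow libraries, 769, 724, 714 and 603 CPM in lung libraries and 384 CPM in the primary library. The primary library was the lowest for these as well, with log2 fold changes of 0.79 ± 0.32 and 0.64 ± 0.27 (SE) in bone marrow.

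In lung against the primary library, MRPL51 had a log2 fold change of 1.29 ± 0.29 (SE), with an adjusted p of 0.508 in edgeR and 0.00973 in DESeq2. MRPL18, MRPL41, MRPS28, MRPS17 and MRPL12 had log2 fold changes of 0.87, 1.20, 1.20, 0.78 and 1.26, with edgeR adjusted p between 0.669 and 0.771. MRPS28 had 228, 450.3, 377 and 302 CPM in bone marrow libraries, 537, 327, 622 and 414 CPM in lung libraries and 207 CPM in the primary library, which was the lowest of the 9.

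A fitted log2 fold change below 0 was found for 11 of the 77 genes in bone marrow and 18 in lung against the primary library, and none of these reached an unadjusted p of 0.05 in edgeR. MRPS9, the counterpart of a bacterial small subunit protein, had 102, 195, 193 and 155 CPM in bone marrow libraries, 187, 77.1, 60.0 and 71.1 CPM in lung libraries and 222 CPM in the primary library. Its log2 fold change was -0.46 ± 0.61 in bone marrow and -1.17 ± 0.59 in lung (SE), and without lung library 1, the highest lung library, it was -1.74 in lung with an unadjusted edgeR p of 0.0028. MRPS35, found only in mitochondria, had 175, 182, 129.9 and 93.4 CPM in bone marrow libraries, 131, 134, 133 and 119 CPM in lung libraries and 182 CPM in the primary library, just above the highest bone marrow library. MRPL54, found only in mitochondria, had 145, 95.6, 50 and 65.2 CPM in bone marrow libraries, 76.9, 74.4, 71.0 and 45.1 CPM in lung libraries and 118 CPM in the primary library. All lung libraries lay below the primary one for MRPL54, but bone marrow library 1 lay above it. MRPL22, whose bacterial counterpart lines the exit tunnel, had 415, 387, 217 and 261 CPM in bone marrow libraries, 286, 495, 383 and 315 CPM in lung libraries and 390.1 CPM in the primary library. For MRPL22, libraries of both sites exceeded the primary level. MRPL48, found only in mitochondria, had 49.0, 50.4, 59.5 and 55.9 CPM in bone marrow libraries, 56.8, 35.4, 120 and 41.6 CPM in lung libraries and 69.0 CPM in the primary library, which 1 lung library exceeded.

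**Figure D5:**
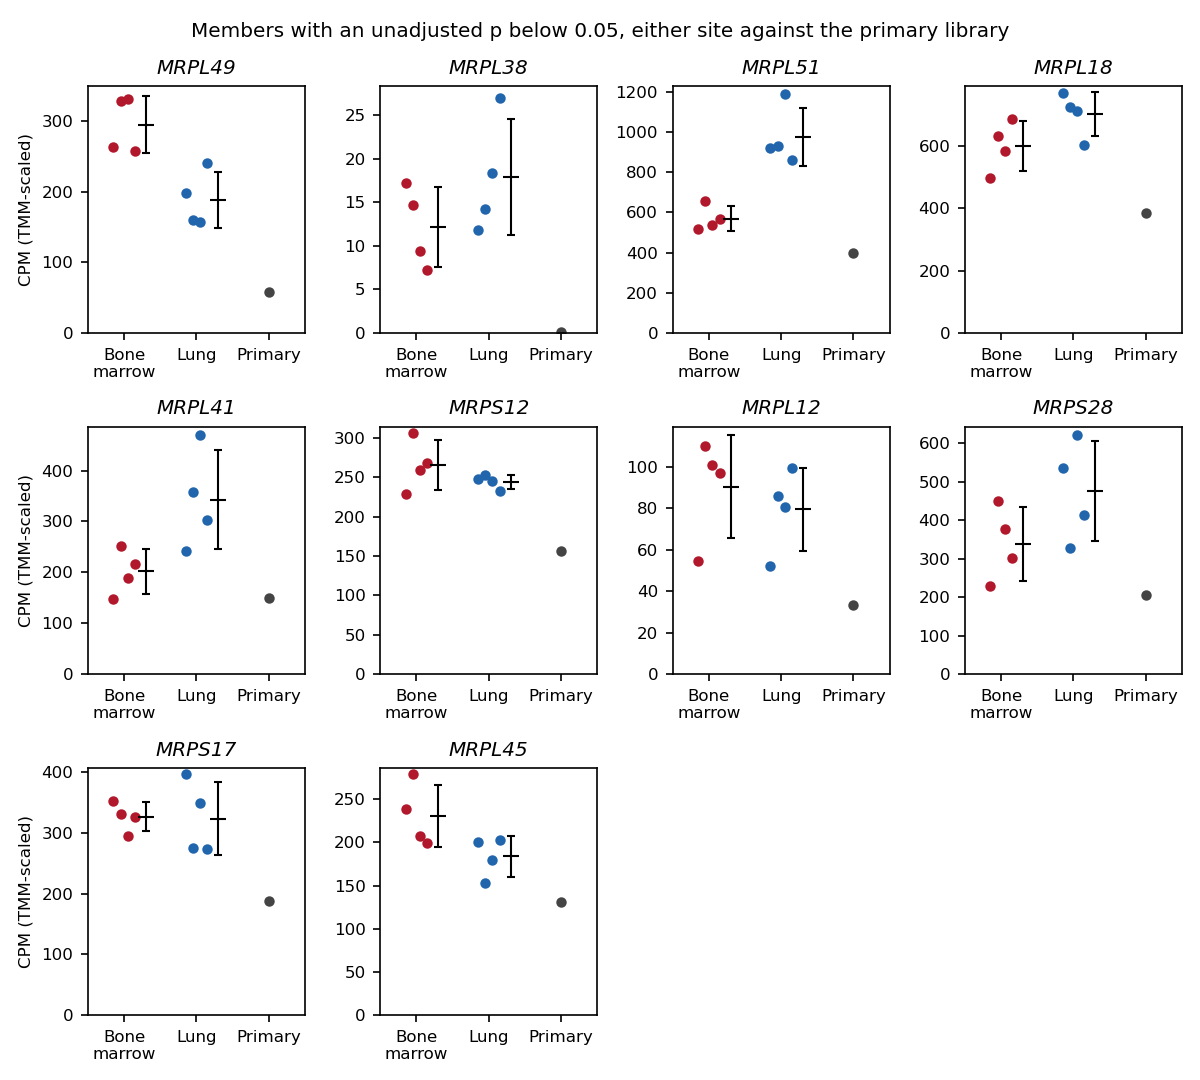
TMM-scaled CPM of the 10 genes with an unadjusted edgeR p below 0.05 in bone marrow or lung against the primary library, with 1 point per library on an axis from 0, the mean and SD of 4 libraries beside the bone marrow and lung points, and the single primary library on the right. The primary point lies at or near the bottom of every panel, at 57.5 CPM for MRPL49 and 0.153 CPM for MRPL38.

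Libraries of 1 site agreed better for these genes than for most. The median coefficient of variation was 26.0% in bone marrow and 24.4% in lung, against 57.6% and 63.5% over all genes, whose median log2 CPM was 2.62 against 7.36 for the 77. Some members still varied more than 3-fold within a site, 10 in bone marrow and 8 in lung. The share of all genes that did so was not counted, so these counts have no background beside them. MRPL10, at the base of the stalk, had 53.8, 100.1, 102 and 97.6 CPM in bone marrow libraries, 42.7, 89.1, 148 and 8.14 CPM in lung libraries and 50.8 CPM in the primary library, an 18.2-fold range in lung. MRPS2, the counterpart of a bacterial small subunit protein, had 16.7, 34.6, 58.0 and 45.8 CPM in bone marrow libraries, 24.9, 29.9, 12.5 and 2.98 CPM in lung libraries and 25.5 CPM in the primary library, a 10-fold range in lung. Lung library 4 was the low one for both. MRPS30, a protein of the large subunit in spite of its name, had 61.8, 115, 134 and 78.3 CPM in bone marrow libraries, 77.7, 101, 13.2 and 68.8 CPM in lung libraries and 86.2 CPM in the primary library, with lung library 3 the low one. MRPL23, of the exit tunnel, had 22.4, 112, 15.2 and 19.0 CPM in bone marrow libraries, 46.8, 96.9, 107 and 67.5 CPM in lung libraries and 38.3 CPM in the primary library, with bone marrow library 2 the high one. At the other end, MRPS12 and MRPS35 had coefficients of variation of 3.69% and 5.23% in lung.

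The rest of the mitochondrial gene expression machinery was followed in lists of other genes. Beside each list's counts in bone marrow against lung stand the same shares of all genes: 49.9% above 0, and at an unadjusted p below 0.05 6.33% higher and 3.88% lower. Of 6 tested ribosome subunits with other names, 4 had a log2 fold change above 0, with a median of 0.05, and at an unadjusted edgeR p below 0.05 there were 0 higher and 2 lower. CHCHD1, a small subunit protein, averaged 79.0 ± 17.2 CPM in bone marrow, against 131 ± 29 CPM in lung, and GADD45GIP1, a large subunit protein, averaged 154 ± 69.0 and 265 ± 48.3 CPM (SD, n = 4 each), with edgeR adjusted p of 0.471 and 0.485. No gene of the lists that follow passed an adjusted p of 0.05 in edgeR in any of the 3 comparisons. Of 26 ribosome assembly factors, 19 had a log2 fold change above 0 in bone marrow against lung, with a median of 0.26, and at an unadjusted p below 0.05 there was 1 higher and 1 lower. METTL15, a methyltransferase of the small subunit RNA, had 18.5, 65.8, 113 and 87.6 CPM in bone marrow libraries, 7.53, 23.1, 8.45 and 9.55 CPM in lung libraries and 42.5 CPM in the primary library. Its sites overlapped through bone marrow library 1, and its log2 fold change was 2.55 ± 0.62 (SE), at an adjusted p of 0.331 in edgeR and 0.00247 in DESeq2.

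Of 17 mitochondrial translation factors, 12 had a log2 fold change above 0 in bone marrow against lung, with a median of 0.41, and none had an unadjusted edgeR p below 0.05. Of 21 tested enzymes that charge mitochondrial transfer RNAs, 16 were above 0, with a median of 0.50, and 3 had an unadjusted edgeR p below 0.05, all higher in bone marrow. AARS2 and TARS2, the enzymes for alanine and threonine, averaged 3.40 ± 2.15 and 70.8 ± 35.5 CPM in bone marrow, against 0.501 ± 0.354 and 21.5 ± 9.05 CPM in lung. Both were called by DESeq2 (adjusted p of 0.0485 and 0.0274), as were 2.16% of all genes with an adjusted p there, and not by edgeR (0.403 and 0.381). Of 19 genes of mitochondrial transcription and RNA processing, 13 were above 0, with a median of 0.53, and 4 had an unadjusted edgeR p below 0.05, all higher in bone marrow. FASTKD1, an RNA-binding protein of mitochondria, averaged 98.9 ± 18.9 CPM in bone marrow, against 43.5 ± 18 CPM in lung, with an edgeR adjusted p of 0.414.

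Of the messenger RNAs that the mitochondrial ribosome translates, 0 of 13 had a log2 fold change above 0 in bone marrow against lung, with a median of -0.76, and 3 had an unadjusted edgeR p below 0.05. They took 1.28, 0.277, 0.478 and 1.12% of counts in bone marrow libraries, 1.45, 1.17, 1.18 and 1.41% in lung libraries and 1.34% in the primary library. Bone marrow libraries 2 and 3 stood apart at the bottom, and bone marrow library 1 lay within the lung range. The deposited share of reads assigned to mitochondrial ribosomal RNA was 0.0956 to 0.218% in bone marrow, 0.359 to 0.491% in lung and 0.0570% in the primary library. Against the primary library, the lists in the order given, from other-named subunits to messenger RNAs, had median log2 fold changes of 0.22, 0.41, 0.39, 0.42, 0.61 and -0.74 in bone marrow and 0.35, -0.07, -0.18, -0.32, -0.01 and -0.09 in lung.

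The 77 genes are spread over 21 chromosomes, with at most 8 on any 1 of them (GENCODE release 29). A protein-coding gene on the other strand starts within 1000 bases upstream of 17 of the 77 (22.1%), against 7.37% of 19969 protein-coding genes. MRPS11 and MRPL46, of different subunits, start 34 bases apart in opposite directions. MRPL46 averaged 195 ± 7.17 CPM in bone marrow, 217 ± 36.3 CPM in lung and, in the primary library, 143 CPM, with a log2 fold change of -0.15 in bone marrow against lung, beside -0.43 for MRPS11. Exons of 41 of the 77 overlap those of another gene, on the same strand for 16 and on the opposite strand for 29. Of the 77, 34 have annotated pseudogenes, 75 in all, and none of those pseudogenes is a row of the count table, so the counts of these genes are uncertain where reads of a copy could be assigned to them.

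Promoter letters are shown for the genes whose levels stood out above. Of the 77 genes, 68 matched a RefSeq promoter (GRCh38.p14), read from 250 bases before to 50 bases after the start. Each line gives the 120 bases before and the first 50 bases from the start, 5′ to 3′ on the strand of the gene, with capitals for the ETS motif CCGGAAG (or its reverse complement CTTCCGG) and the YY1 motif AAGATGGC. EWSR1-FLI1, the fusion protein of Ewing sarcoma, carries the DNA-binding domain of an ETS factor. The windows are chr12:6493213-6493382 (minus strand) for MRPL51, chr5:72320191-72320360 (minus) for MRPS27, chr1:150293741-150293910 (plus) for MRPS21, chr11:65122201-65122370 (plus, the second of its annotated starts) for MRPL49 and chr17:75904835-75905004 (minus) for MRPL38.
MRPL51: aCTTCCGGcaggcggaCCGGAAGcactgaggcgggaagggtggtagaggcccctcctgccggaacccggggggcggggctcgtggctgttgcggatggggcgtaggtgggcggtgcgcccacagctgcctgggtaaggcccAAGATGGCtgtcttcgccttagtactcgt
MRPS27: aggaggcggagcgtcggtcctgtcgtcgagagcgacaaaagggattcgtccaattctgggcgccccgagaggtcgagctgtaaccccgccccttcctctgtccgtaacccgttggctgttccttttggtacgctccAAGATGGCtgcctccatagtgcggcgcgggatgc
MRPS21: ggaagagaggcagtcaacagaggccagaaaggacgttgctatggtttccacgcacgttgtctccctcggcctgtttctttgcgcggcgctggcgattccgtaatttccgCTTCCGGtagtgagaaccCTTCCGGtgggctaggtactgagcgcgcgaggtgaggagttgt
MRPL49: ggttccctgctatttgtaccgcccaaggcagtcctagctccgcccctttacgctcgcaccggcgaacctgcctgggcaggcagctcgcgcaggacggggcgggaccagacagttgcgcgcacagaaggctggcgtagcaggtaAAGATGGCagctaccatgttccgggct
MRPL38: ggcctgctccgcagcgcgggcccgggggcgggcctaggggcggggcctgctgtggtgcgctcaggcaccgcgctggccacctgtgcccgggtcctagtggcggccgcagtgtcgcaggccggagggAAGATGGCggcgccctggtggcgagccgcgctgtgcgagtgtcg

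MRPL51 holds both motifs, the ETS one at 2 places, and MRPS21 holds the ETS motif at 2 places. MRPS27 holds the YY1 motif, and so does MRPL38, whose promoter also has an ETS motif upstream of the letters shown. The window printed for MRPL49 holds the YY1 motif, and the promoter at its other annotated start holds neither. The promoter of MRPS11, not printed, holds neither motif. Over both strands of the whole promoter window, CCGGAAG was found for 29 of the 68 genes (42.6%), against 16.5% of 15843 coding genes and 10.3% of 35116 promoters of all kinds. AAGATGGC was found for 21 of the 68 (30.9%), against 4.66% of coding genes and 2.89% of all promoters. In the windows printed for MRPL51, MRPS27, MRPL49 and MRPL38 it lies within the first 50 bases from the start, and its letters include ATG. Whether such matches are the start of the coding sequence was not tested. Of the 68, 8 held both, 42 at least 1 and 26 neither, and the ETS motif was in 17 of 41 large and 12 of 27 small subunit genes. The NRF1 motif and the E-box CACGTG were each found for 9 of the 68 genes (13.2%), against 9.67% and 10.9% of coding genes and 5.78% and 7.26% of all promoters. A run of 3 GGAA units, the repeat of the microsatellites that EWSR1-FLI1 is known to bind, was found for 0 of the 68, against 0.101% of coding genes and 0.0854% of all promoters. The ETS motif shares the letters GGAA with that repeat, and a match describes the letters of the window only.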

How the data were processed

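Per the labels, a low-input template-switching kit was used for the 9 libraries of sorted TC71 cells. The submitters' processing notes name Trim Galore, Salmon and hg38, without versions. The authors deposited estimated counts per gene symbol, not scaled for depth, and a table with the percent of reads per species and the fraction of reads per counting category. How the deposited percent and fraction values were made, and the strand setting, are not given in the sources used here.

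Here the estimated counts were rounded. The 12 vector rows, at most 0.0133% of a library, were left out, and 28 rows that carry dates in place of symbols were left as they are. edgeR 4.0.16 (filterByExpr, TMM, quasi-likelihood) was fitted once to 9 libraries in 3 groups over 17073 genes, with two-sided Benjamini-Hochberg adjusted p over all of them and a threshold of 0.05. The SE is the absolute log2 fold change over the square root of F. Alternatives were other size factors, other filters, DESeq2 1.42.0, limma 3.58.1 voom with quality weights, the metastases alone, the replicate number as a block, and each library left out. Leaving out both bone marrow 1 and lung 3, and placing MRPS30, MRPS18A and MRPS36 by function, were added after seeing the data. Lengths and positions come from GENCODE release 29 (GRCh38), with the median coding transcript length. The fit was also run on simulated data with 200 changed genes, and its power at the fold changes found here is not reported. All 36 pairs of libraries differed by more than sampling noise, with a chi-square of 79.9 or more per degree of freedom.

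The genes and lists were chosen with earlier results of these data known. Values in every library are given for the genes called by any tool, the 6 smallest p per direction and comparison, the 3 highest and lowest per subunit, MRPL38 and MRPL49, and for a few genes of wide spread chosen after their values were seen. Of each other list, up to 3 genes with the smallest p are named.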

Additional observations from a re-analysis of the deposited data

Results flagged for a closer look

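In 12 of 154 groups of 4 libraries (7.79%), 1 library of the group stood farther from the rest than Dixon's 95% limit of 0.829 of the range. Chance alone flags about 1 in 20 groups. Bone marrow library 1 was the one that stood apart in 6 of the 12. It was low for MRPL10 (53.8 CPM, the others 97.6 to 102), MRPL19 (176 CPM, the others 267 to 284), MRPS27 (92.3 CPM, the others 176 to 191) and MRPS31 (83.6 CPM, the others 117 to 119). It was high for MRPL33 (436 CPM, the others 138 to 173) and MRPL47 (400 CPM, the others 192 to 226).

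Bone marrow library 2 was high for MRPL23 (112 CPM, the others 15.2 to 22.4) and MRPL35 (270 CPM, the others 206 to 214), and bone marrow library 3 was low for MRPL44 (113 CPM, the others 147 to 152). In lung, library 4 was low for MRPL21 (158 CPM, the others 202 to 204), library 3 was high for MRPS33 (281 CPM, the others 146 to 161) and library 1 was high for MRPS9 (187 CPM, the others 60.0 to 77.1). Without bone marrow library 1, the log2 fold change of MRPS27 in bone marrow against lung was 1.41, beside 1.20 with it.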

How the results depend on the processing

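The count of all genes called in bone marrow against lung was 1. It was 3 with a filter at 5 CPM (in 4 or more libraries), 468 with DESeq2, 6 with limma voom, 0 with the replicate block, 0 without both bone marrow library 1 and lung library 3, and 0 with each library left out in turn. The members called were 0, and 2 with DESeq2. Against the primary library DESeq2 called 69 genes in bone marrow, 2 of them members, and 162 in lung, 3 of them members, and limma voom called 4 genes in lung; the causes of these differences were not tested. With the longest transcript, 7 of 12 level extremes stayed. The 7 calls that DESeq2 added were MRPS27 and MRPL51 in bone marrow against lung, MRPL49 and MRPL38 in bone marrow against primary, and MRPL38, MRPL51 and MRPL49 in lung against primary. The other 478 values of named members under alternatives kept their direction and side of the threshold.

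The median over the 77 genes in bone marrow against lung, 0.03, was -0.05 with library size alone, -0.06 with the 5 CPM filter and -0.07 to 0.08 with each library left out. Against the primary library it was 0.31 to 0.44 in bone marrow and 0.33 to 0.51 in lung with each library left out. Same-numbered bone marrow and lung libraries did not deviate together (correlations of -0.01, 0.037, -0.056 and -0.036). These correlations cannot show whether same-numbered libraries share a mouse, which the labels do not say. With the replicate block the median was -0.03 and 0 genes were called. The lowest member counts were 2, for MRPL38 in the primary library, and 41, for MRPS2 in lung library 4. Lung library 1, with a lower total than the primary library, had 140 counts of MRPL38. The cause of the low MRPL38 count in the primary library was not tested.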
